A study of Mus musculus with 15 samples.

Results

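Microglia are the resident macrophages of the brain. The genes described here, 31 in all, are their identity and immune receptor genes: the receptors, adaptors, lysosomal proteins and transcription factors by which brain tissue is commonly scored for microglia. They were chosen by name from a list, and 30 of the 31 had a mean of at least 1 TPM (transcript abundance scaled to transcript length and library total) over the 15 libraries, among 18656 such genes in a table of 54736. The exception was Runx1, a transcription factor gene of blood and microglial development, which stood at 0.24 to 0.42 TPM and was not tested, while Itgb2, the lowest gene that was kept, had a mean of 2.47 TPM.

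Libraries were made from punched medial prefrontal cortex. All mice were C57BL/6 males, 8 to 10 weeks old. Df(h15q13)/+ animals carry on 1 chromosome 7 a deletion that models the human 15q13 microdeletion, and wild-type littermates served as controls. By the sample titles, followed here, 7 libraries are WT and 8 are KO (the heterozygotes); in the design text of the series these numbers are swapped. The labels name no individual animals, so p-values measure the spread between libraries. The deletion is not specific to any cell type, and none of the 31 genes lies within it.

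Microglia keep their identity through a few signals. Interleukin 34 and colony stimulating factor 1 bind CSF1R and sustain survival, TGF-beta holds the cells in their surveying state through TGFBR1, and neuronal fractalkine binds CX3CR1. The transcription factors PU.1 (encoded by Spi1), IRF8 and SALL1 set the gene programme. TREM2 and other surface receptors signal through the adaptor TYROBP, also called DAP12, and P2Y receptors guide the processes of the cells towards released nucleotides.

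The libraries matched their titles. Klf13, Otud7a, Chrna7, Mtmr10 and Fan1, all inside the deleted segment, were called lower (limma with Benjamini-Hochberg adjustment over all 18656 genes), and for each the KO libraries lay below every WT library. The table gives no read depth; library totals ranged from 999789 to 999899 TPM, and genes with a mitochondrial symbol held 18.8% to 26.0% of a library. KO 1 and KO 8 stood apart in oligodendrocyte markers, with a mean log2(TPM + 1) of 5.59 and 6.08 against 4.02 to 4.44 in the other KO and 4.49 to 4.89 in the WT libraries. KO 1 also had the lowest values for long transcripts, with a slope of -0.095 log2 units per doubling of transcript length against -0.028 to 0.041 in the other libraries.

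Microglia genes were slightly lower in Df(h15q13)/+ cortex in most cases, and no gene of the list passed the test over all genes. Of the 30 tested genes 25 had a lower mean log2(TPM + 1) in KO, the scale of all later counts of lower and higher genes. The median log2 fold change was -0.16, whereas 45.3% of all tested genes were lower and their median was 0.02. At an adjusted limma p under 0.05 the count was 0 of 30 genes (0.0268% of all tested genes passed). At an unadjusted limma p under 0.05, 10 of the 30 were lower and 0 were higher; over all genes 6.21% were lower and 5.68% higher at that level. The 10 were Mpeg1, Sall1, Ctss, Csf1r, Cd33, Inpp5d, Selplg, P2ry6, Laptm5 and Fcgr3, with adjusted p-values from 0.241 to 0.412. By the exact permutation test at the same level 11 were lower (5.90% of all genes); its adjusted count of 0 carries no weight, since the deleted genes, at its smallest p of 0.000155, had an adjusted p of 0.223. The limma count depended on single libraries: it was 5 if WT 6 was left out, 6 if WT 7, KO 4 or KO 6 was, and 16 if WT 4 was. Leaving out KO 1 and KO 8 together also gave 5. In 6 genes (Mpeg1, Csf1r, Ctss, P2ry6, Selplg and Tmem119) no KO library reached the WT mean, as in 3.66% of all genes, and in 0 genes did every KO library exceed it, as in 3.09%. In 0 genes did the groups separate fully, against 0.0911% of all genes with KO lower and 0.0429% with KO higher.

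**Figure D1:**
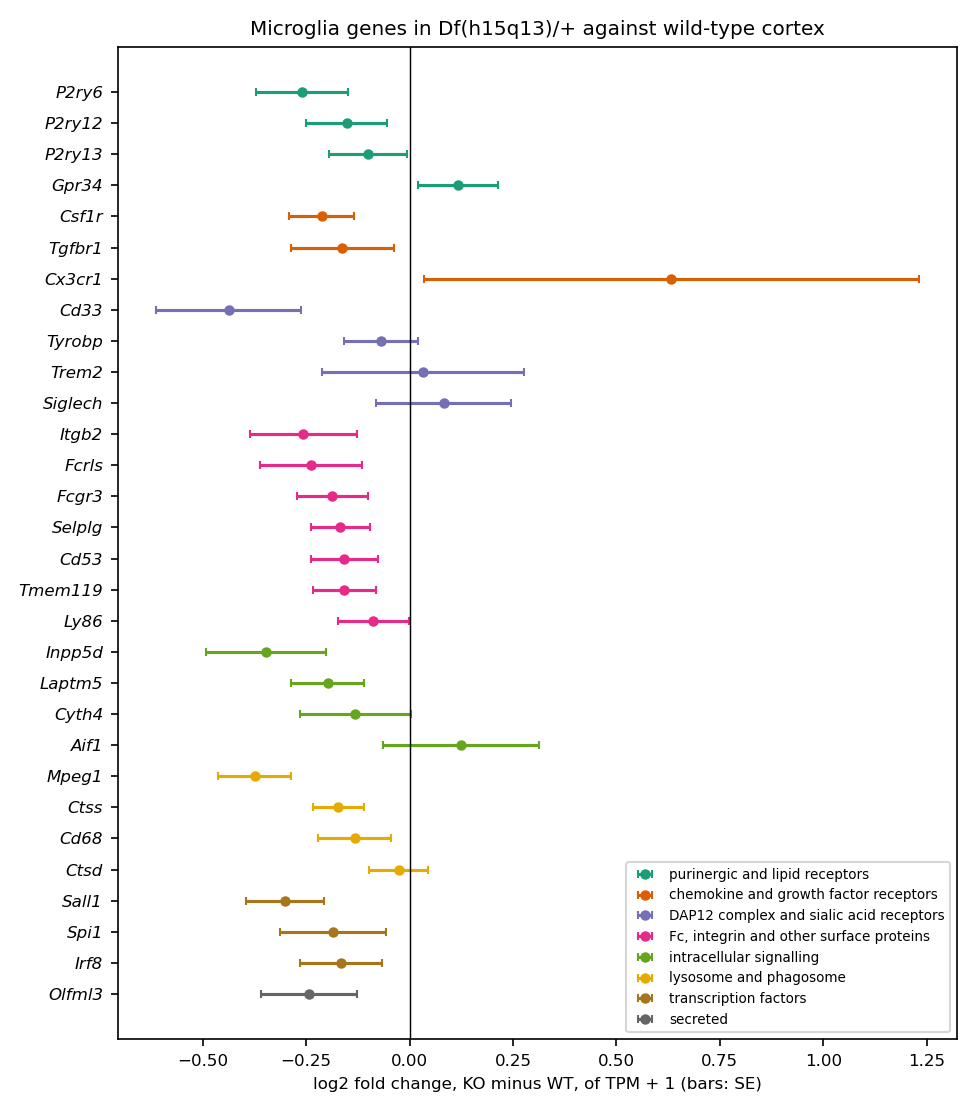
Log2 fold changes of KO minus WT on the TPM + 1 scale (horizontal axis) for the 30 tested microglia genes, coloured by role, with the standard error as bars. Of the 30 points 25 lie left of 0, and Cx3cr1, at 0.63, has by far the widest bar.

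Averaged over the 30 genes, the mean log2(TPM + 1) per library ran from 3.62 through a median of 3.89 to 4.004 in WT and from 3.58 through 3.72 to 3.86 in KO libraries. The groups overlapped: 7 of 8 KO libraries lay below the WT mean, but only KO 1 lay below WT 4, the lowest WT library. The difference was -0.13 ± 0.06 (SE), or 91.3% of WT, and no test was made on this mean, since the list was chosen with results known. Within the WT group, 12 of the 30 genes had their highest value of all libraries in WT 6 and 9 in WT 3, while WT 4 was above the 15-library median for 7 genes. In KO the lowest value of a gene fell most often in KO 1, for 8 genes, and in KO 4, for 7. In a tissue punch, fewer microglia, less RNA per microglial cell and a larger share of other RNA in the library total cannot be told apart.

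**Figure D2:**
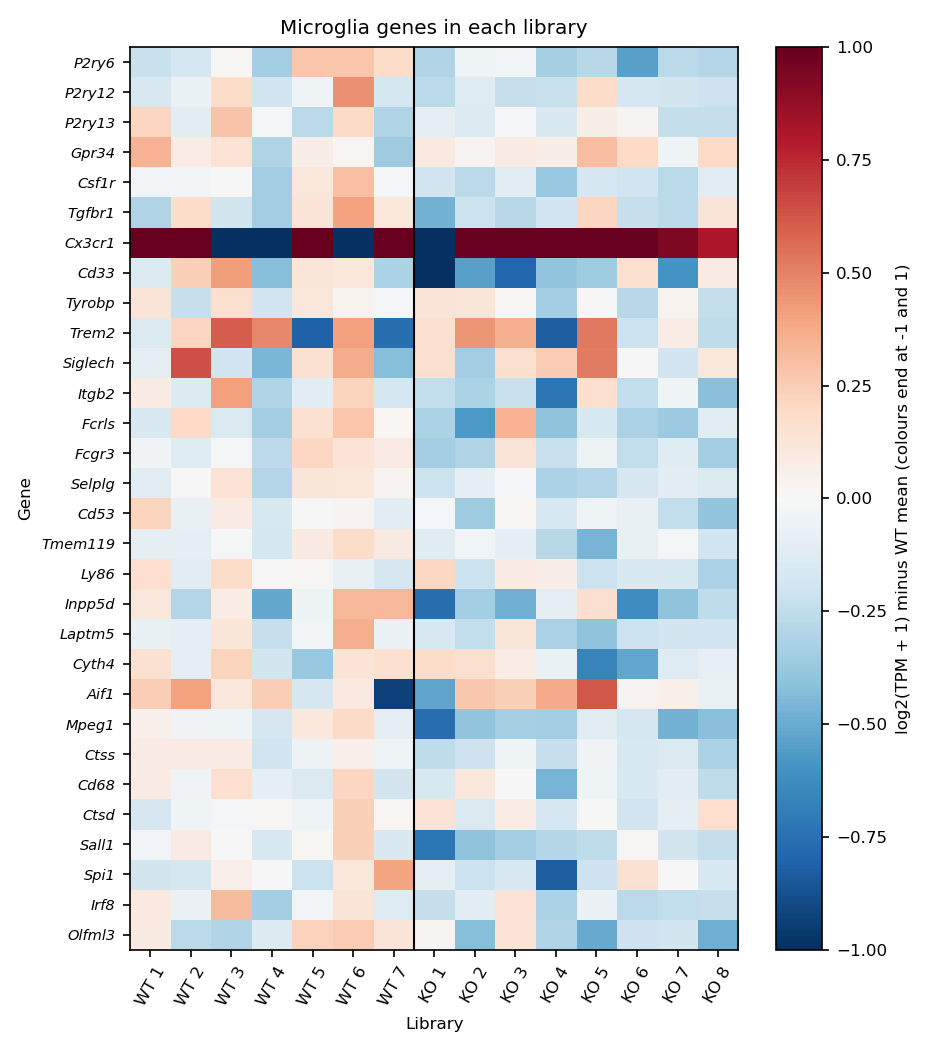
Log2(TPM + 1) minus the WT mean for the 30 tested genes (rows, ordered by role) in the 7 WT and 8 KO libraries (columns); blue is lower and red higher, and colours end at -1 and 1. Most KO columns are pale blue, and Cx3cr1 alternates between the ends of the scale in both groups.

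The survival and surveillance receptors differed from each other in level and in spread. Csf1r, the receptor for colony stimulating factor 1 and interleukin 34, ranged from 27.6 through a median of 34.9 to 43.9 TPM in WT and from 27.0 through 30.8 to 32.9 TPM in KO. No KO library reached the WT mean and 6 of the 7 WT libraries were above every KO library, WT 4 being the exception. Its log2 fold change was -0.21 ± 0.08 (SE; limma adjusted p = 0.355). Tgfbr1, the type I TGF-beta receptor, which other brain cells also express, had means of 10.52 ± 2.23 and 9.23 ± 1.68 TPM (SD, n = 7 and n = 8), with 6 of 8 KO libraries below the WT mean.

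Cx3cr1, the fractalkine receptor, fell into separate levels that did not follow genotype. It was listed at 3.12 TPM in WT 3, 3.59 in WT 4, 4.16 in WT 6 and 1.92 in KO 1, and at 22.5 to 31.8 TPM in the other 11 libraries, 4 WT and 7 KO. No library lay between 4.16 and 22.5 TPM, a 5.41-fold step, and the highest library was 16.5 times the lowest. The other microglia genes did not share this step: the next widest spread in the list was 3.67-fold, for Trem2. P2ry12 stood at 49.4, 37.7, 59.8 and 35.8 TPM in the same WT 3, WT 4, WT 6 and KO 1, and Tmem119 at 16.2, 14.4, 18.7 and 14.9 TPM. Csf1r was at 43.9 TPM, its highest value, in WT 6. A gap between neighbouring libraries as wide as that of Cx3cr1 on the log2(TPM + 1) scale occurred in 120 of 18656 tested genes (0.643%).

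The KO minus WT value of Cx3cr1 was 0.63 ± 0.60 (SE; limma adjusted p = 0.653), with 3 of 7 WT and 1 of 8 KO libraries at the low level. With 1 library left out it ranged from 0.35 (WT 3) to 1.04 (KO 1), and it was 0.37 for WT 4 and 0.40 for WT 6. In the GENCODE M21 annotation Cx3cr1 (ENSMUSG00000052336) spans 168264 bases on the minus strand of chromosome 9, from 119901616 to 120069879 (mm10), and overlaps 9 other genes, 5 of them protein coding. That span comes from 1 of its 3 transcripts, Cx3cr1-202, whose last exon of 12 bases lies 147 kb from the exon before it, inside Wdr48. The other transcripts end at 120048683. Which transcripts the deposited value rests on is not given in the sources used here, and the part of the annotation or of the library in this step was not tested. Without Cx3cr1, a choice made after its values were seen, the mean over the other 29 genes differed by -0.16 ± 0.05 (SE). With it the mean differed by -0.13 ± 0.06. Leaving it out put 8 of 8 KO libraries below the WT mean, against 7 of 8 with it.

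**Figure D3:**
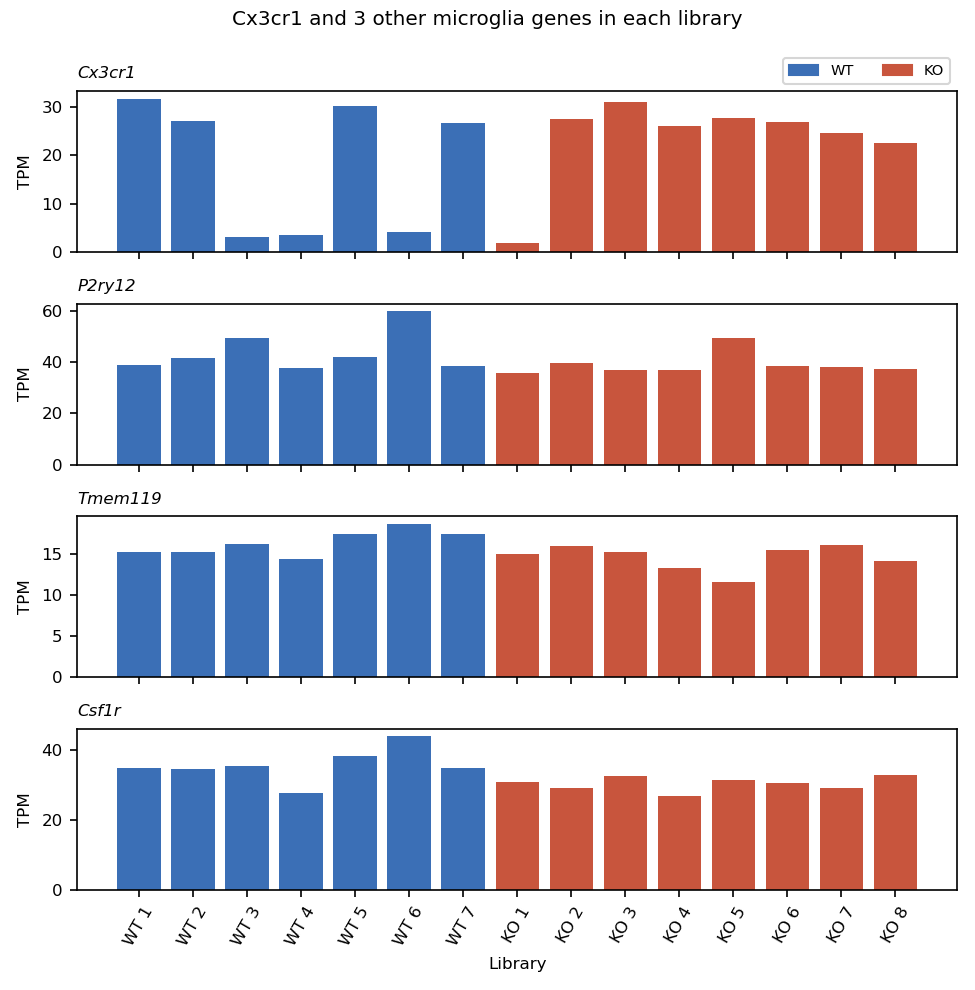
TPM (vertical axes, from 0) of Cx3cr1, P2ry12, Tmem119 and Csf1r in each of the 15 libraries, WT blue and KO red. Cx3cr1 is below 5 TPM in WT 3, WT 4, WT 6 and KO 1 and above 20 TPM in the other 11, while the other 3 genes show no such step.

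The ligands of these receptors did not pass the test. Tgfb2 had the lowest p, with means of 6.71 ± 0.93 and 5.29 ± 0.99 TPM (SD, n = 7 and n = 8; log2 fold change -0.30, limma adjusted p = 0.339), Tgfb1 was at -0.09 and Tgfb3 at -0.03. Csf1, which encodes colony stimulating factor 1, was at 11.0 to 12.02 TPM in the WT and at 6.27 to 14.1 TPM in the KO libraries; 6 of the 8 KO values were below the lowest WT value and the other 2, in KO 3 and KO 7, above the highest. Il34, the ligand made by neurons, ranged from 61.9 to 125.7 TPM in WT and 60.8 to 145.8 TPM in KO. Cx3cl1, which encodes fractalkine, also fell into separate levels. It was at 186.2 and 215.7 TPM in WT 2 and WT 7 and 523.4 to 764.6 TPM in the other WT libraries, and at 86.9, 148.6 and 160.0 TPM in KO 1, KO 6 and KO 3 against 501.1 to 768.4 TPM in the other KO libraries. Of the libraries low in Cx3cl1, only KO 1 was also low in Cx3cr1. Apoe and Clu, both ligands of TREM2, were at -0.17 ± 0.21 and -0.02 ± 0.17 (SE), Icam1, a ligand of integrin beta 2, at -0.24 and Il34 at 0.14, and Selp, which encodes the P-selectin that the Selplg product binds, was listed at 0 in every library. In all, 8 of 9 tested ligands had lower KO means, 1 of them at an unadjusted p under 0.05, against 45.3% and 6.21% of all genes.

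Purinergic receptors gave small values. P2ry12, the ADP receptor by which microglial processes reach injured tissue, ranged from 37.7 through 41.4 to 59.8 TPM in WT and from 35.8 through 37.7 to 49.4 TPM in KO. The ranges overlapped, although 4 KO libraries lay below every WT library; WT 6 and WT 3 were highest among WT, and KO 5 alone was above 40 TPM among KO. Its log2 fold change was -0.15 ± 0.10 (SE; limma adjusted p = 0.515), and -0.08 without WT 6. P2ry13, its neighbour on chromosome 3, had -0.10 ± 0.09, and P2ry6, the UDP receptor linked to phagocytosis, had -0.26 ± 0.11, from 3.28 ± 0.75 to 2.54 ± 0.40 TPM (SD), and no KO library reached the WT mean. Gpr34, a lysophosphatidylserine receptor, had a higher KO mean, 10.2 ± 0.89 against 9.41 ± 1.75 TPM (SD), with 7 of 8 KO libraries above the WT mean and an adjusted limma p of 0.609. P2ry12 and P2ry13 lie within Med12l and Gpr34 within Cask, each on the opposite strand. Of the 31 genes, 6 are overlapped by a gene with a mean of at least 1 TPM. Besides these receptors and Cx3cr1, they are Csf1r, overlapped by Hmgxb3 on the opposite strand, and Ctss, overlapped by the pseudogene Hmgb1-ps5 on the same strand. With no strand setting given, reads of such pairs cannot be told apart with certainty.

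Among the receptors that bind sialic acid or signal through DAP12, Cd33 had the lowest p. Cd33, a sialic acid receptor, ranged from 4.37 through 6.75 to 8.62 TPM in WT and from 2.44 through 4.22 to 7.04 TPM in KO. KO 1, KO 3, KO 7 and KO 2 lay below every WT library, but KO 6 and KO 8 lay above the WT mean. The log2 fold change was -0.44 ± 0.18 (SE; limma adjusted p = 0.378). Tyrobp, the adaptor itself, was nearly level, at 27.4 to 36.2 TPM in WT (median 33.1) and 25.3 to 35.4 TPM in KO (median 32.4), a value of -0.07 ± 0.09 that lay between -0.11 (without WT 2) and -0.03 (without KO 4). Trem2, the lipid-sensing receptor that needs this adaptor, was uneven within both groups: 1.77 to 6.37 TPM in WT (median 4.62) and 1.74 to 5.98 TPM in KO (median 4.28). Its low libraries were WT 5, WT 7 and KO 4, all under 2 TPM, and its log2 fold change was 0.03 ± 0.24 (SE; limma adjusted p = 0.964). Siglech, a further DAP12 partner found on mouse microglia, had means of 11.6 ± 3.73 and 12.02 ± 2.41 TPM in WT and KO (SD). Counted together by mean log2(TPM + 1), 2 of these 4 genes were lower and 2 higher in KO. Trem2 counts as higher on that scale, although its mean TPM was 4.18 in WT and 4.16 in KO.

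All 7 genes of Fc, integrin and other surface proteins had lower KO means, 2 of them at an unadjusted p under 0.05, against 45.3% and 6.21% of all genes. Tmem119, a surface protein that marks microglia among brain macrophages, ranged from 14.4 through 16.2 to 18.7 TPM in WT and from 11.6 through 15.1 to 16.1 TPM in KO. Every KO library was below the WT mean, and 4 WT libraries were above every KO library. Its log2 fold change was -0.16 ± 0.08 (SE; limma adjusted p = 0.434). Selplg, the P-selectin ligand, had -0.17 ± 0.07, from 31.8 ± 3.34 to 28.1 ± 2.10 TPM (SD), and the activating Fc receptor gene Fcgr3 had -0.19 ± 0.09, from 17.0 ± 1.96 to 14.8 ± 1.88 TPM. The Fc receptor-like gene Fcrls was at -0.24, the integrin beta 2 gene Itgb2 at -0.26, the tetraspanin gene Cd53 at -0.16 and Ly86, which encodes the MD-1 partner of a Toll-like receptor homologue, at -0.09. KO 3 had the highest Fcrls value of all 15 libraries, 20.5 TPM.

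Intracellular signalling genes were mixed. Inpp5d, the lipid phosphatase SHIP1 that limits immune receptor signals, ranged from 8.35 through 13 to 15.7 TPM in WT and from 6.90 through 9.24 to 13.85 TPM in KO. In 7 of 8 KO libraries it was below the WT mean, with KO 5 as the exception and WT 4 lowest among WT. Its log2 fold change was -0.35 ± 0.15 (SE; limma adjusted p = 0.388). Laptm5, a lysosomal membrane protein gene of blood cells, had -0.20 ± 0.09, from 39.0 ± 5.62 to 33.8 ± 3.86 TPM (SD), and Cyth4, an exchange factor gene, -0.13 ± 0.13, which was -0.06 without KO 5 and -0.08 without KO 6. Aif1, which encodes the common histological marker IBA1, had a higher KO mean: 3.38 through 8.04 to 10.1 TPM in WT and 4.82 through 8.30 to 11.9 TPM in KO. WT 7 alone was below 4 TPM, the ranges otherwise overlapped, and the log2 fold change was 0.12 ± 0.19 (SE; limma adjusted p = 0.781).

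Lysosomal and phagosomal genes held the lowest p of the list. Mpeg1, a pore-forming protein of phagosomes, ranged from 12.6 through 13.9 to 16.4 TPM in WT and from 8.04 through 10.8 to 13.2 TPM in KO. Of the KO libraries 6 lay below every WT library, and only KO 5 and KO 6 reached the lower WT values. Its log2 fold change was -0.37 ± 0.09 (SE), with KO at 75.9% of WT (limma adjusted p = 0.241; exact permutation p = 0.00109, adjusted over all genes 0.233). Ctss, the cysteine protease cathepsin S and the second most abundant gene of the list, ranged from 51.9 through 61.8 to 63.4 TPM in WT and from 47.7 through 52.6 to 58.4 TPM in KO. No KO library reached the WT mean, and 4 lay below the lowest WT library, WT 4, and the log2 fold change was -0.17 ± 0.06 (SE; limma adjusted p = 0.339). Ctsd, the aspartic protease cathepsin D, which neurons and other cells express as well, was the most abundant at 208.1 through 230.0 to 275.7 TPM in WT and 204.0 through 226.5 to 262.7 TPM in KO, and differed by less than its spread (-0.03 ± 0.07). Cd68, a lysosomal glycoprotein of macrophages, had -0.13 ± 0.09, from 13.8 ± 1.61 to 12.5 ± 1.59 TPM (SD).

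**Figure D4:**
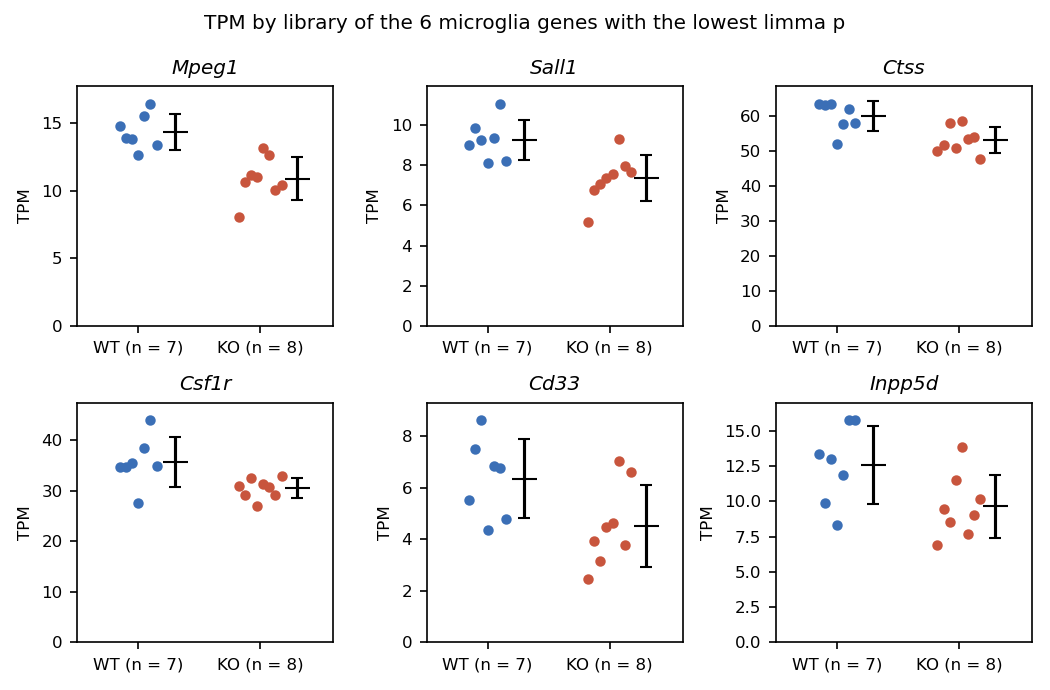
TPM (vertical axes, from 0) of the 6 microglia genes with the lowest limma p in each library, 7 WT (blue) and 8 KO (red), with mean and SD in black. In Mpeg1, 6 KO libraries lie below every WT library, and in Csf1r, 6 WT libraries lie above every KO library; the groups overlap in every panel.

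Transcription factor genes were lower in all 3 tested cases. Sall1, the zinc finger factor that sets microglia apart from other macrophages, ranged from 8.12 through 9.23 to 11.1 TPM in WT and from 5.19 through 7.48 to 9.29 TPM in KO. Of the 8 KO libraries 7 lay below the lowest WT library, and KO 6, at 9.29 TPM, lay within the WT range. Its log2 fold change was -0.30 ± 0.09 (SE; limma adjusted p = 0.311; exact permutation p = 0.00373, adjusted over all genes 0.273). Spi1 was at 3.79 to 6.33 TPM in WT (median 4.58) and 2.13 to 5.18 TPM in KO (median 4.01), with KO 4 lowest (log2 fold change -0.19 ± 0.13, limma adjusted p = 0.543; -0.09 without KO 4 and -0.12 without WT 7). Irf8, the interferon regulatory factor that pairs with PU.1, was at 2.42 to 4.403 TPM in WT (median 3.26) and 2.48 to 3.79 TPM in KO (median 2.67), a value of -0.17 ± 0.10 with 7 of 8 KO libraries below the WT mean. Of partner factor genes, 9 were tested and 6 were lower, as were 45.3% of all genes. Cebpb was at 0.33 ± 0.12, Maf at -0.28 ± 0.10 and Irf5 at -0.27 ± 0.13 (SE, limma adjusted p = 0.339, 0.343 and 0.439). The secreted olfactomedin-like gene Olfml3, which microglia express, was at -0.24 ± 0.12, from 10.1 ± 1.74 to 8.34 ± 1.58 TPM (SD).

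Promoters were searched because PU.1, the product of the list's own Spi1, is known to bind near many microglia genes. Sequences are shown for 4 of the 6 genes of lowest limma p, and Sall1 and Csf1r are left out. Both had a lower p than Cd33 and Inpp5d, which are shown, so the choice did not follow p alone. RefSeq (GRCm38.p6) gave windows of 250 bases before to 50 bases after the start for 22 of the 30 genes, 27 windows in all. The PU.1 core GAGGAAG, searched on both strands, was in 12 of the 27 windows (44.4%), in 11 of the 22 genes, against 13.6% of 32851 windows of all genes. Sall1 and Csf1r were not among these 11 genes, either because they had no window or because their windows held no match. The sequences shown therefore do not stand for all 6 genes of lowest p. The composite ETS-IRF motif, which shares the letters GGAA with the PU.1 core and could overlap it, was in 1 of the 27 (3.70%, Cd68), against 2.72% of all windows. In the sequences, read 5′ to 3′ on the gene's own strand, capitals mark the PU.1 core, which begins 1 base before the start in Ctss (in the reverse orientation), 226 before it in Cd33 and 20 before it in Inpp5d; Mpeg1 holds neither motif. The windows are chr3:95526536-95526835 (plus strand) for Ctss, chr7:43533122-43533421 (minus strand) for Cd33, chr1:87620062-87620361 (plus strand) for Inpp5d and chr19:12460520-12460819 (plus strand) for Mpeg1.
Ctss: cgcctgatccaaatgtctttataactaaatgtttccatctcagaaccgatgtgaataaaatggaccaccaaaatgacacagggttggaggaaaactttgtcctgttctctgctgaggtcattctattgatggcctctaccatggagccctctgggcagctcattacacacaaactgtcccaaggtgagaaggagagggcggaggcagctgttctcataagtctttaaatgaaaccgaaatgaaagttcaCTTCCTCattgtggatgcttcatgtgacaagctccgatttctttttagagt
Cd33: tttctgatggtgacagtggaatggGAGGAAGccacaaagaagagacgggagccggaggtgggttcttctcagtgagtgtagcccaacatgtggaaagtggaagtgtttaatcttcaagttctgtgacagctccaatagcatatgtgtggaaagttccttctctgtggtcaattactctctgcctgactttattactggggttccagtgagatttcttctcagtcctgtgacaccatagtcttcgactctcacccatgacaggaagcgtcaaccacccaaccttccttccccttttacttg
Inpp5d: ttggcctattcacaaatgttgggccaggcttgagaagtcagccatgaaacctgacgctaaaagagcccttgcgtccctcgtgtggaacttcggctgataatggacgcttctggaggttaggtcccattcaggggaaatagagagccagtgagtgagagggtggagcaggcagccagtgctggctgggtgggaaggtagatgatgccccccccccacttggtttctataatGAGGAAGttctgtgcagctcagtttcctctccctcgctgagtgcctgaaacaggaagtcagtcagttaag
Mpeg1: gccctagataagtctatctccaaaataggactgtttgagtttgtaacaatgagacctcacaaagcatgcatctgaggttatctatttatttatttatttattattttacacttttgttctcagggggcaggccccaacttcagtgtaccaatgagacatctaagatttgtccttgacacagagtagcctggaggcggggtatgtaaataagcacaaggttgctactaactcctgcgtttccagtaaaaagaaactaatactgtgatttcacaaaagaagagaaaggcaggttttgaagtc
A match of letters in a window is a description and not a binding site.

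No gene of the same pathways outside the list passed the adjusted test. In the TGF-beta pathway all 9 tested genes had lower KO means, with log2 fold changes from -0.51 to -0.006. Of these, 2 were at an unadjusted limma p under 0.05. Over all genes 45.3% were lower, and 6.21% were lower at that p. The 2 were Tgfbr2 and Smad4 (limma adjusted p = 0.304 and 0.314). Tgfbr2, the type II receptor, had WT and KO means of 6.34 ± 2.38 and 3.96 ± 0.49 TPM (SD), a log2 fold change of -0.51 ± 0.15 (SE). Smad4, the shared mediator, was at -0.37 ± 0.12 (SE). Both are expressed in vessel and other cells too. Of kinases and adaptors below the receptors, 8 of 10 were lower and 1 of them, Lyn, was at an unadjusted p under 0.05, with -0.42 ± 0.13 (adjusted p = 0.311) and 7 of 8 KO libraries below every WT library, while the adaptor gene Blnk was at 0.28 ± 0.15.

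Of 26 tested genes on a separate list of microglia-enriched genes, 20 were lower, 7 of them and 0 of the higher ones at an unadjusted p under 0.05, with a median of -0.16. Over all genes 45.3% were lower, and 6.21% were lower at that p, with a median of 0.02. The organic anion transporter gene Slco2b1 was at -0.31 ± 0.09, the fructose transporter gene Slc2a5 at -0.38 ± 0.13 and Nckap1l, an actin regulator gene of blood cells, at -0.23 ± 0.09 (SE; limma adjusted p = 0.311, 0.330 and 0.370). Of 16 listed genes of the disease-associated microglial state, 5 had means under 1 TPM and were not tested. These were Cst7 and Lgals3, whose mean TPM was lower in KO, and Itgax, Clec7a and Gpnmb, whose mean TPM was higher. Among the 11 tested, 7 were lower, 3 of them and 0 of the higher ones at an unadjusted p under 0.05. The lower ones included the chemokine gene Ccl6 at -0.72 ± 0.22, the engulfment receptor gene Axl at -0.42 ± 0.15 and Cd63 at -0.23 ± 0.10 (adjusted p = 0.306, 0.339 and 0.401). Which cells the values of the 11 tested genes come from was not tested.

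Correlations between the genes over the 15 libraries, after each group's mean was removed, were uneven, and are given as a description over libraries that share their preparation and total scaling. Ctss followed the mean of the other 29 genes most closely (r = 0.82), then Irf8 (0.78), Csf1r (0.74) and Mpeg1 (0.70). At the other end were Ly86 (-0.20), Cyth4 (-0.17), Spi1 (-0.03), Cx3cr1 (-0.03), Olfml3 (0.05), Trem2 (0.06) and Ctsd (0.06). The closest pairs were Trem2 with Cd68 (0.80) and Mpeg1 with Sall1 (0.79).

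Markers of other cell types had lower KO means in several lists, and 0 markers of any of these lists passed the adjusted test. Over all genes 45.3% were lower, and 6.21% were lower at an unadjusted p under 0.05. For endothelial markers the list mean was at -0.43 ± 0.10 log2 units (SE), with 14 of 15 lower and 12 at an unadjusted p under 0.05, and their summed level was 257.1 to 384.9 TPM in WT and 185.2 to 307.6 TPM in KO. Mural cell markers were at -0.35 ± 0.09, with 11 of 11 lower, 7 at that p, and summed levels of 170.5 to 222.2 and 122.4 to 203.3 TPM. Astrocyte markers were at -0.25 ± 0.09, with 13 of 15 lower, 9 at that p, and summed levels of 2294 to 2995 and 1941 to 2565 TPM. The 30 microglia genes, at -0.13 ± 0.06 and summing with Runx1 to 630.0 to 811.2 and 615.6 to 722.6 TPM, lay nearer to inhibitory neuron markers, which were at -0.13 ± 0.06 with 8 of 10 lower, 2 at that p, while excitatory neuron markers were at 0.06 ± 0.08 with 4 of 11 lower, 2 at that p, and 3 of the higher ones at an unadjusted p under 0.05. These differences between lists were not tested, nor was the part of the other cell types in the microglia values.

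Macrophages of the brain's borders share many of the 31 genes, and their own markers were low. Of 12 such markers 5 reached a mean of 1 TPM, and the 12 summed to 10.6 to 29.8 TPM in WT and 7.60 to 26.0 TPM in KO. Mrc1, the mannose receptor, had means of 1.95 ± 0.69 and 1.06 ± 0.51 TPM (SD; log2 fold change -0.52 ± 0.17 SE, limma adjusted p = 0.322), F13a1 was at -0.36 ± 0.17 and Stab1 at -0.46 ± 0.24. These 3 had the lowest p. The 5 tested markers ranged from -0.52 to -0.007, and their list mean was at -0.30 ± 0.26 (SE). Of 13 blood leukocyte markers 2 were tested, S100a9 at 0.37 ± 0.60 and Ngp at -0.24 ± 0.43, the 13 summed to 0.29 to 26.0 TPM in WT and 0.31 to 26.3 TPM in KO, and Cd3d and Plac8 were listed at 0 in every library. Genes of red blood cells summed to 799.2 to 2788 TPM in WT and 390.9 to 1448 TPM in KO. The part of border macrophages and blood in the microglia values was not tested.

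**Figure D5:**
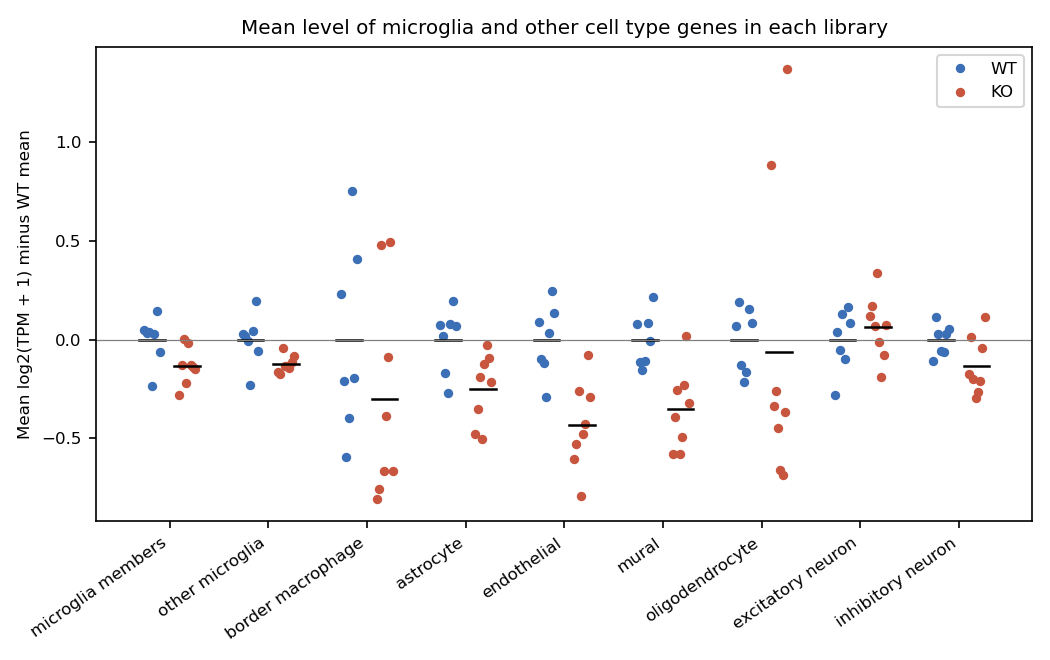
Mean log2(TPM + 1) of each gene list minus its WT mean (vertical axis) in each library, WT blue and KO red, with black lines at the group means. The microglia genes lie at -0.13 in KO, the endothelial markers at -0.43, and KO 1 and KO 8 stand out among oligodendrocyte markers.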

How the data were processed

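The values are TPM that the authors deposited per Ensembl gene and library, made with Trimmomatic, HISAT2 and StringTie on mm10, per the submitters' processing notes. Their versions, strand setting and annotation are not stated in the sources used. The unit keeps no read depth, so depth is unknown, no counting interval is given and no count model was used. Of 54838 rows 54723 matched a GENCODE M21 symbol, and rows that share a symbol were summed. 1 unnamed column was not used.

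Genes averaging at least 1 TPM were tested as log2(TPM + 1), which understates the change of low genes, in R 4.3.3 with limma 3.58.1 (moderated, intensity trend, two-sided, Benjamini-Hochberg over all 18656 genes, threshold 0.05). The exact permutation test over all 6435 splits was an alternative, as were other pseudocounts, filters and scalings, array weights, a replicate block and fits without single libraries. The fit was also run on simulated data with known changes, built from these libraries' own means and spreads. How small a change it could call is not given here. The genes, lists and tests were chosen with earlier results of these data known. Any gene of the microglia list may be named, with full values for the 6 of lowest p and for 12 fixed names; of other lists up to 3 of lowest p and all ligands are named. Cd3d, Plac8 and the disease-associated genes under 1 TPM were named, and ligands given by library, after their values were seen. Replicate numbers are shared by 7 WT and KO pairs but did not pair the libraries.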

Additional observations from a re-analysis of the deposited data

Results flagged for a closer look

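In 62 sets of values (each of the 30 tested genes and their mean, in each group), a library far from the others of its group was looked for, and chance gives about 1 such set in 20. It was found in 4 sets. Cx3cr1 in KO 1 stood at 1.92 TPM, against 22.5 to 31.1 TPM in the other 7 KO libraries; in WT, where 3 libraries were as low, no single library stood apart. P2ry12 in KO 5 was at 49.4 TPM, against 35.8 to 39.6 TPM in the other KO libraries. Aif1 in WT 7 was at 3.38 TPM, against 6.47 to 10.1 TPM in the other WT libraries. Spi1 in KO 4 was at 2.13 TPM, against 3.79 to 5.18 TPM in the other KO libraries.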

How the results depend on the processing

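Over 30 alternatives, 884 of 894 values of single microglia genes kept their direction and their side of the threshold, and 0 passed it. The 10 others changed sign, all at an adjusted limma p of 0.896 or more: Trem2, at 0.03 with all libraries, was -0.10 without WT 5, -0.09 without WT 7, -0.03 without KO 2, -0.01 without KO 3 and -0.04 without KO 5; Aif1 was -0.032 without WT 7; Siglech was -0.023 with array weights; Ctsd was 0.013 without WT 6. With 1 library left out Trem2 reached 0.16, Aif1 0.22 and Ctsd -0.055 at the other end of their ranges. In all, 14 of 30 genes moved by over 1.5 times when 1 library was left out: besides these 3 genes, and Cx3cr1, P2ry12, Spi1, Cyth4 and Tyrobp, whose values stand with them, Siglech was 0.0069 without WT 4, Tgfbr1 -0.096 without WT 6, Cd68 -0.085 without KO 4, Gpr34 0.058 without WT 7, P2ry13 -0.054 without WT 3 and Ly86 -0.053 without KO 8. Without WT 3, WT 4, WT 6 and KO 1, P2ry12 was -0.02. Without WT 3, WT 4, WT 6 and KO 1, an alternative added after seeing the data like the removal of length and GC trends, P2ry13 was 0.012 and Ctsd 0.0065. The cause of these changes was not tested. The mean over the list stayed between -0.17 (without WT 4) and -0.10, and lay between -0.17 and -0.11 with 1 library left out. The count of genes at an unadjusted p under 0.05 and lower, 10 with all libraries, was 5 without KO 1 and KO 8, 6 without WT 3, WT 4, WT 6 and KO 1, and 5 to 16 with 1 library left out. Over all genes 5 to 6 passed with 1 library left out and 0 by the exact permutation test, in which the deleted genes at its smallest p of 0.000155 reached an adjusted 0.223. With the replicate number as a block 8 passed, none of them a microglia gene; the correlation of same-numbered libraries was -0.06 to 0.15, over 0.1 in 1 of 7 pairs, and 1 of 7 WT libraries correlated best with its own number. TPM without depth limits what can be said of low genes such as Trem2, Irf8, P2ry6 and Itgb2.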
